A study of Mus musculus with 6 samples.

Results

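Innate immune cells read microbes, damaged cells and antibody through a set of germline-encoded receptors, and 60 of the 13007 genes in the count table belonged to these receptor families: 10 Toll-like receptors, 9 NOD-like receptors, 16 genes named as C-type lectins, 8 Fc receptors, 7 paired immunoglobulin-like receptors (LILR and PIR), 5 TREM receptors and 5 Siglecs. They were chosen by symbol alone, from 63 symbols that carried the family prefixes, less Clec1b, Treml1 and Nlrc5. Poly-A RNA was measured in 3 libraries of acute erythroid leukemia cells (AEL) and 3 of normal marrow erythroid precursors (NC), all of strain C57BL/6, with the same number of sorted cells put into each. The AEL libraries are labelled Trp53-/-ERG-expressing, came from marrow leukemic cells transduced to overexpress ERG together with GFP, and were sorted as GFP+. The NC libraries are labelled WT and came from a sort on CD71 and Ter119 antibody staining, and the 2 groups therefore also differed in their sorting markers. All 6 libraries, with NC among them, have a source label that speaks of SETBP1 and ASXL1 mutations; for NC this contradicts WT, and the labels do not resolve it. Replicates are called biological, but nothing says whether they came from separate animals or from more than 1 leukemia, so the p-values measure only the spread between these libraries.

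Toll-like receptors bind microbial lipids, proteins and nucleic acids at the cell surface or in endosomes and signal mostly through the adaptor Myd88, while NOD-like receptors do so in the cytosol and, for some, assemble inflammasomes. C-type lectins and Siglecs bind sugars and sialic acid. Fc receptors bind the constant part of antibodies, and many of the activating Fc, lectin, PIR-A and TREM receptors have no signaling tail of their own and depend on the adaptor chains Fcer1g or Tyrobp, which recruit the kinase Syk. Inhibitory relatives such as Pirb and Fcgr2b recruit phosphatases. In marrow these genes are known mainly from neutrophils, monocytes, macrophages, dendritic cells and B cells rather than from red cell precursors.

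Most of the receptor genes were far lower in AEL than in NC. Counts are given as CPM, scaled to the library total times its TMM factor, and were tested with edgeR's quasi-likelihood test with Benjamini-Hochberg adjustment over all 12427 genes that reached 1 CPM in at least 3 libraries. Of the 60 receptor genes 59 were tested, and 48 of them (81.4%) fell, 1 rose and 10 did not pass at an adjusted p of 0.05. Over all genes tested 52.8% passed, 29.0% lower in AEL and 23.9% higher. All 3 AEL libraries lay below all 3 NC libraries for 52 of the 59 receptor genes and above them for 1, against 36.1% and 29.9% of all genes. The median log2 fold change (AEL over NC) was -4.38 over the 59 genes and -0.05 over all genes tested. The falls ran from 4.30-fold for Clec4d to 421-fold for Siglec1. Of the 48 genes that fell, 18 reached 1 CPM in no AEL library. These could enter the test only through their NC level and had to differ, so their number adds nothing to the count. They are still held in the 81.4%, the 52 genes and the median given above, and Siglec1 is among them. They are also held in the family counts and medians below. By family, 4 of 5 Siglecs, 4 of 10 Toll-like receptors and 2 of 5 TREM genes reached 1 CPM in no AEL library. So did 2 of 8 Fc receptors, 2 of 16 C-type lectins, 1 of 7 LILR and PIR genes and 4 of 9 NOD-like genes, with the untested Nlrp1a counted.

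The summed level of the 60 genes was 1449, 1516 and 1736 CPM in NC replicates 1 to 3 and 162, 271 and 128 CPM in AEL replicates 1 to 3. The AEL sums lay below every NC sum. They were, however, made of different genes: Clec16a, Treml2 and Clec2d together gave 89.9%, 35.1% and 50.8% of the AEL sums and 4.17% to 4.71% of the NC sums. Without these 3 genes, which were picked after their values were seen, the other 57 summed to 16.4, 176 and 62.9 CPM in AEL and to 1383, 1445 and 1663 CPM in NC. The heat map of levels by library shows this contrast, with the NC columns bright for most genes and the AEL columns darker and unequal.

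**Figure D1:**
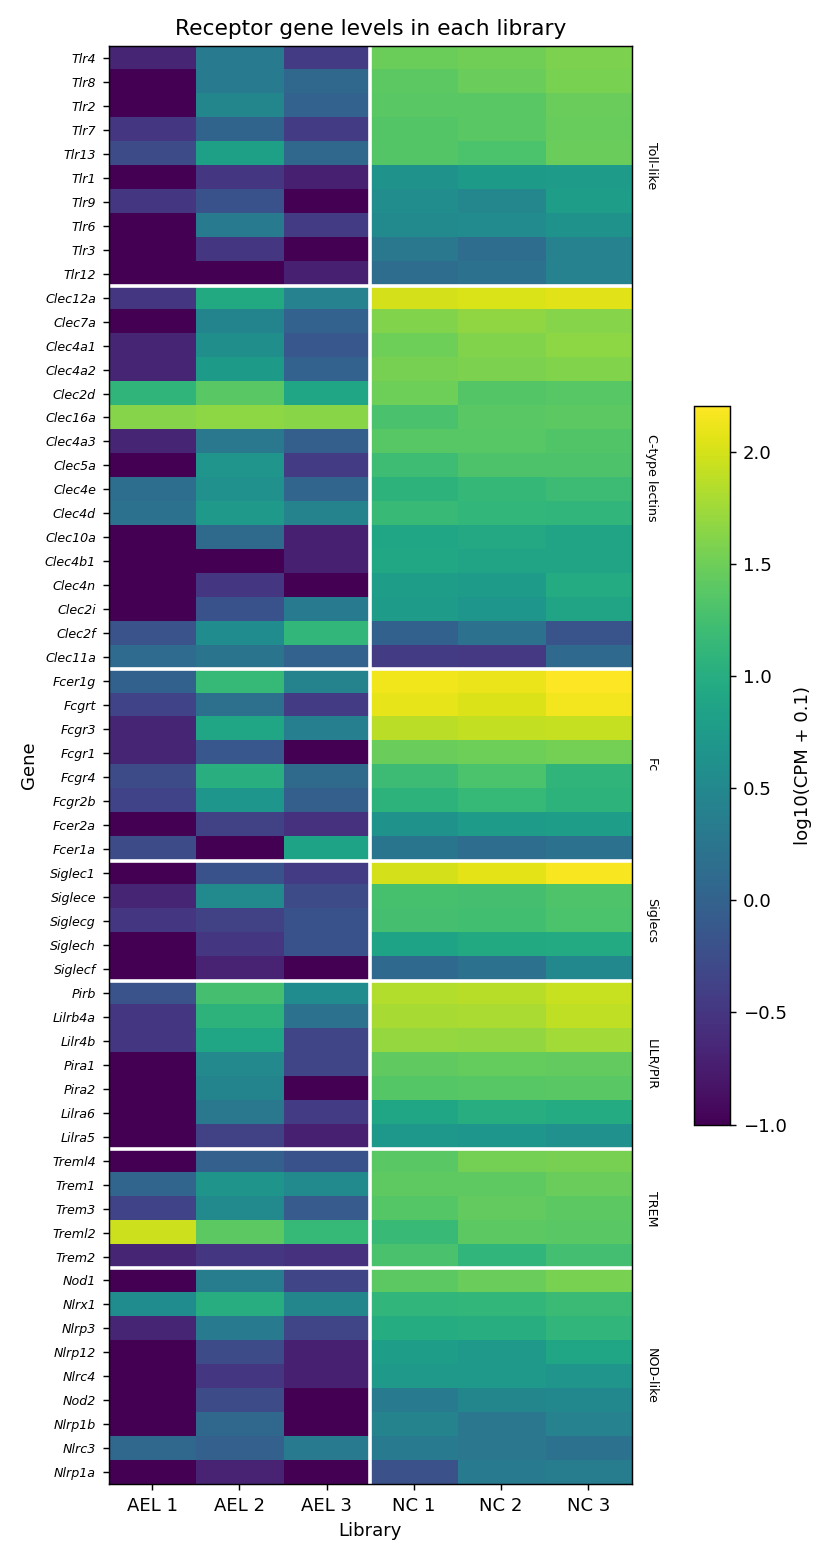
Level of each of the 60 receptor genes (rows, grouped by family) in each of the 6 libraries (columns), as log10 of CPM plus 0.1, from dark (low) to yellow (high). Most rows are brighter in the NC columns than in the AEL columns, with AEL replicate 2 the brightest of the 3 AEL libraries for 51 of the 60 genes, and Clec16a, Treml2 and Clec2d stand out as bright in both groups.

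The 3 AEL libraries differed from each other in these genes more than the NC libraries did. That was also so over all genes tested, with a biological coefficient of variation of 44.2% in AEL and 9.15% in NC. Of the 60 genes, 27 had no count in AEL replicate 1, 3 in AEL replicate 2 and 9 in AEL replicate 3, and none was at 0 in an NC library. A count of 0 allows a level of up to 0.338, 0.326 and 0.274 CPM in AEL replicates 1, 2 and 3 (3 counts per library, covering counting error only). AEL replicate 2 held the highest AEL value for 51 of the 60 genes, AEL replicate 3 for 8 and AEL replicate 1 for 1, while over all genes tested the shares were 37.7%, 30.9% and 31.4%. The median receptor gene stood at 0.281%, 11.2% and 2.38% of its NC mean in AEL replicates 1, 2 and 3, and the median of all genes tested at 95.2%, 95.2% and 91.1%. The order of these medians, AEL replicate 2 above 3 above 1, was also that of the summed neutrophil, monocyte and macrophage, and dendritic cell markers, but not of the other marker lists. The 18 neutrophil markers summed to 22.1, 1352 and 142 CPM in AEL replicates 1, 2 and 3 and to 8783, 9721 and 10349 CPM in NC. The 17 monocyte and macrophage markers summed to 38.1, 273 and 101 CPM in AEL and to 4652, 5101 and 5581 CPM in NC, with Spic and Timd4, genes of iron-recycling and resident macrophages, at 0 in every AEL library. In bulk RNA, fewer cells of a type and less RNA per cell cannot be told apart, and the part of such cells in the falls was not tested.

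The B cell and the T and NK cell markers were highest in AEL replicate 3. The 12 B cell markers summed to 2.14, 2.28 and 3.11 CPM in AEL and 263 to 318 CPM in NC, and the 5 measured of 11 T and NK cell markers to 0.225, 0.760 and 0.915 CPM in AEL and 48.6 to 54.3 CPM in NC. The 11 measured of 12 dendritic cell markers, of which Siglech is also a receptor gene here, summed to 98.5, 127 and 115 CPM in AEL and 664 to 787 CPM in NC, in the order of the neutrophil markers. The 10 measured of 13 eosinophil, basophil and mast cell markers had a higher sum in AEL, with 797, 733 and 1039 CPM against 340 to 375 CPM in NC. Most of these genes did not follow the sum. Of the 9 tested, 5 fell and 2 rose (Gata2 and Il1rl1). The median marker stood at 1.41%, 2.71% and 4.57% of its NC mean in AEL replicates 1, 2 and 3. Epx and Ccr3, which define eosinophils, were at 0 in every AEL library. The 12 erythroid markers summed to 14193, 7591 and 5268 CPM in AEL and 55990 to 71076 CPM in NC. Of these 12, 9 fell, 0 rose and 3 did not pass, with a median log2 fold change of -2.78. The 8 measured of 10 megakaryocyte markers summed to 449, 173 and 200 CPM in AEL and 119 to 139 CPM in NC, with Ppbp at 0 in every AEL library. Of these 8, 3 fell, 3 rose and 2 did not pass. The median marker stood at 198%, 39.2% and 20.6% of its NC mean in AEL replicates 1, 2 and 3, so the sums do not show the typical marker. What these differences contribute to the receptor values was not tested.

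**Figure D2:**
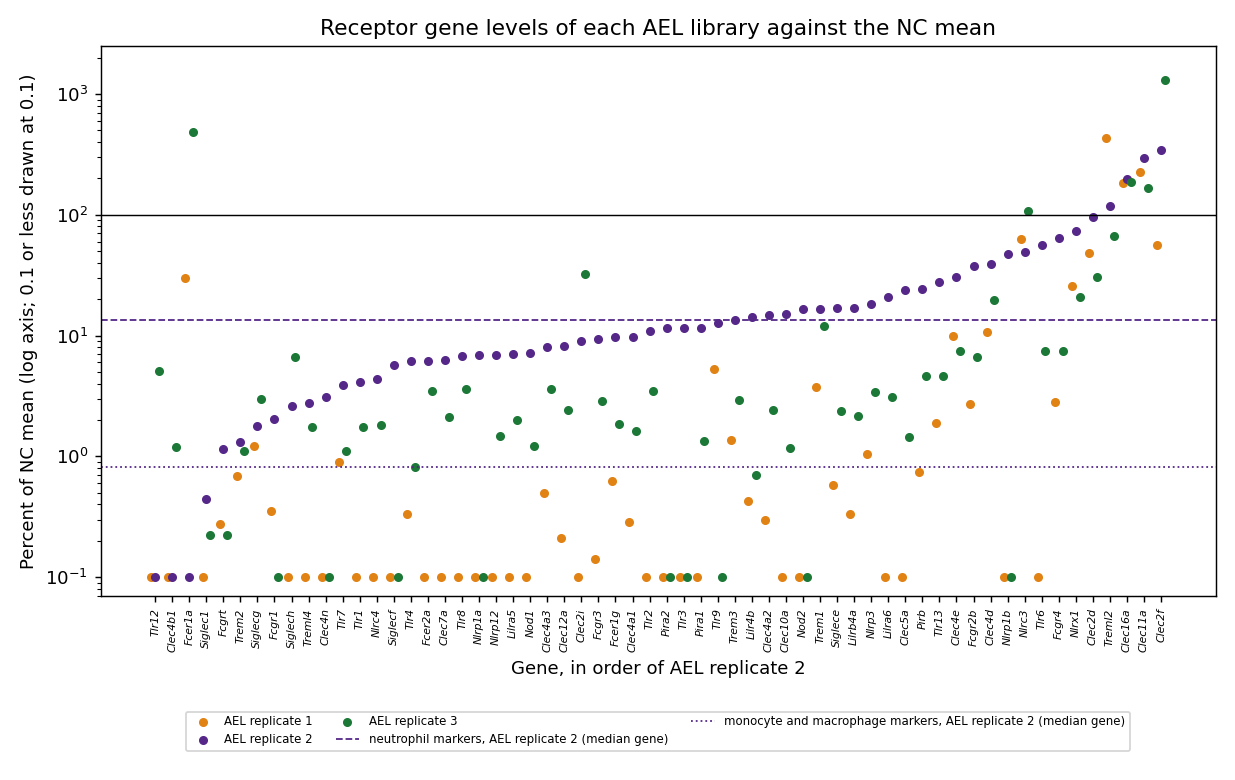
Level of each receptor gene in each AEL library as a percent of its NC mean (vertical log axis), with genes ordered by their value in AEL replicate 2 and values at or under 0.1% drawn at 0.1%. The lines mark the median neutrophil marker (13.5%) and the median monocyte and macrophage marker (0.823%) in AEL replicate 2, and in that library 31 receptor genes lie between the lines, 25 above the upper one and 4 below the lower one. Of those below, Fcer1a, Tlr12 and Clec4b1 had no count in that library, so their place is not known.

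In AEL replicate 2 the receptor genes were spread widely around these marker levels. The median neutrophil marker gene stood at 13.5% of its NC mean there, and the median monocyte and macrophage marker at 0.823%. Of the receptor genes, 4 lay below both, 31 between them and 25 above both. Below both were Siglec1 and also Fcer1a, Tlr12 and Clec4b1, which had no count in that library. A count of 0 allows up to 0.326 CPM there, against NC means of 1.49, 1.79 and 7.65 CPM for these genes. Their place below the marker levels is therefore not known. Of the 60 receptor genes, 10 were under 3% of their NC mean in that library, the genes without a count among them, and 13 over 30%. Siglec1 was at 0.445%, Fcgrt at 1.15%, Trem2 at 1.32% and Siglecg at 1.78%, while Fcgr4 was at 64.0%, Tlr6 at 56.1% and Fcgr2b at 37.7%. In AEL replicates 1 and 3, 51 and 49 of the 60 genes were under 10% of their NC mean, against 29 in AEL replicate 2.

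The 8 Fc receptor genes include the highest levels of the set. Per length of exon, Fcer1g led the 59 genes with a length in NC, at 163 CPM per kb, followed by Fcgrt at 58.5 and Fcgr3 at 46.1 CPM per kb. By the mean of the AEL libraries the leaders per length were Clec2d at 12.3, Treml2 at 8.84 and Clec2f at 8.73 CPM per kb, and Fcer1g was at 6.61 CPM per kb. The values of Treml2 and Clec2f rest mostly on 1 library each. Treml2 was at 91.3, 25.1 and 14.1 CPM and Clec2f at 0.563, 3.47 and 13.2 CPM in AEL replicates 1, 2 and 3. This order therefore need not hold in each AEL library. Of the 8 Fc receptor genes 6 fell, and Fcgr4 and Fcer1a did not pass.

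Fcer1g, the shared signaling chain of activating Fc receptors (chromosome 1, 171229572 to 171234349, GRCm38.p6), was at 0.90, 13.8 and 2.65 CPM in AEL and 139, 129 and 161 CPM in NC. Every AEL library was under 10% of the NC mean, and the log2 fold change was -4.63 (SE 0.84, adjusted p = 0.00415). Fcgr3, an activating IgG receptor that pairs with this chain, was at 0.113, 7.49 and 2.29 CPM in AEL and 74.8, 80.4 and 84.6 CPM in NC (log2 fold change -4.60, SE 0.88, adjusted p = 0.00518). Fcgr1, the high-affinity IgG receptor, was at 0.113, 0.651 and 0 CPM in AEL and 29.9, 31.1 and 34.2 CPM in NC, a fall of 123-fold. In AEL replicate 2 it stood at 2.05% of its NC mean, and Fcgr3 at 9.36%. Fcgrt, the neonatal Fc receptor that recycles IgG and albumin (chromosome 7, 45092993 to 45103822), was at 0.338, 1.41 and 0.274 CPM in AEL and 121, 108 and 140 CPM in NC. It fell 182-fold (log2 fold change -7.51, SE 0.49, adjusted p = 0.000150).

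Fcgr2b, the inhibitory IgG receptor, had 0.338, 4.67 and 0.823 CPM in AEL and 11.6, 13.8 and 11.7 CPM in NC. It passed (log2 fold change -2.67, adjusted p = 0.0329), but the call ended without AEL replicate 3 (adjusted p = 0.0704) and without any single NC replicate (0.0829 to 0.0924, with log2 fold changes of -2.60 to -2.73). The log2 fold change was -4.29 without AEL replicate 2. Here and below, values with a library left out come from a filter of 1 CPM in at least 2 libraries, an alternative chosen after seeing the data. Fcgr4, another activating IgG receptor, had 0.450, 10.2 and 1.19 CPM in AEL and 15.9, 19.5 and 12.4 CPM in NC. The groups did not overlap, yet AEL replicate 2 came close to NC replicate 3 and the gene did not pass (log2 fold change -2.01, SE 0.98, adjusted p = 0.126). Without AEL replicate 2 the log2 fold change was -4.16 and the gene passed (adjusted p = 0.000779), and it also passed with the replicate number as a block (-2.94, adjusted p = 0.0451) and in the 3 limma fits (0.0190 to 0.0344). The 3 IgG receptors Fcgr2b, Fcgr3 and Fcgr4 lie in 1 run with Fcer1g on chromosome 1 and are related in sequence, so reads shared among them would make their separate values uncertain. Fcer2a, the low-affinity IgE receptor CD23 of B cells, was at 0, 0.326 and 0.183 CPM in AEL and 4.25 to 5.99 CPM in NC and fell 28.7-fold.

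Fcer1a, the IgE-binding chain of mast cells and basophils, went unlike the rest of its family. It was at 0.450, 0 and 7.23 CPM in AEL and 1.68, 1.30 and 1.5 CPM in NC, so 1 AEL library was above all NC libraries and 2 were below them. The log2 fold change was 0.80 (SE 1.30, adjusted p = 0.630), and without AEL replicate 3 it was -2.65 (adjusted p = 0.0471). AEL replicate 3 was also the library with the highest sum of eosinophil, basophil and mast cell markers, 1039 CPM. Of the 9 tested genes of that list, however, 5 fell and 2 rose. Whether Fcer1a and this sum are related was not tested.

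All 7 paired immunoglobulin-like receptor genes fell, with a median log2 fold change of -4.29. Pirb, an inhibitory receptor for MHC class I, was at 0.563, 18.3 and 3.48 CPM in AEL and 68.1, 71.9 and 86.6 CPM in NC, without overlap. Its log2 fold change was -3.34 (SE 0.95, adjusted p = 0.0234). Lilrb4a, an inhibitory receptor of myeloid cells, was at 0.225, 11.6 and 1.46 CPM in AEL and 61.4, 63.5 and 79.6 CPM in NC (log2 fold change -3.95, SE 1.02, adjusted p = 0.0166). Its neighbour in sequence Lilr4b was at 0.225, 7.49 and 0.366 CPM in AEL and 50.5, 48.2 and 58.1 CPM in NC. The activating Pira1 was at 0, 3.15 and 0.366 CPM in AEL and 26.2, 28.2 and 26.9 CPM in NC. Pira2 was at 0, 2.71 and 0 CPM in AEL and 22.8, 23.4 and 24.4 CPM in NC. In all 7 genes AEL replicate 2 was the highest AEL library. Lilra6 and Lilra5 fell 12.5-fold and 30.3-fold from NC means under 10 CPM. The PIR genes are near copies of each other, as are Lilrb4a and Lilr4b, and how reads common to copies were counted is not given in the sources used here, so the split among them is uncertain.

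Several of these calls lay close to the threshold. The calls of Pirb, Lilrb4a, Pira2 and Lilra6 ended whichever NC replicate was left out, with adjusted p of 0.0624 to 0.0747 for Pirb, 0.0504 to 0.0605 for Lilrb4a, 0.0603 to 0.0652 for Pira2 and 0.0587 to 0.0691 for Lilra6. Their log2 fold changes in these fits hardly moved, at -3.24 to -3.42, -3.83 to -4.03, -4.69 to -4.74 and -3.57 to -3.76. The call of Lilr4b ended without NC replicate 3 (0.0557) and that of Pirb also without AEL replicate 3 (0.0557). Without AEL replicate 2 the falls were larger, with log2 fold changes of -5.09 for Pirb, -6.18 for Lilrb4a, -7.32 for Lilr4b, -6.94 for Pira1, -10.70 for Pira2 and -5.71 for Lilra6. Pira2 had no count in the other AEL libraries, so its value there is set by the fit and is not a bound.

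The promoters of the PIR genes carry a shared sequence. The letters GAGGAAGT, which hold the GGAA core bound by ETS factors such as PU.1 and ERG, were searched on both strands of RefSeq promoters (GRCm38.p6, from 250 bases before to 50 after each start). They occurred in 9 of the 64 promoters listed for receptor genes (14.1%), or in 9 of the 51 receptor genes with a promoter (17.6%), and in 1052 of all 32851 promoters (3.20%), or 997 of 27025 genes (3.69%). The 9 genes were Fcgr4, Tlr1, Tlr9, Nlrp1a, Nlrp1b, Pirb, Pira1, Pira2 and Lilra6. The 4 PIR windows are shown because they account for 4 of the 9 matches while being copies: windows of 100 bases around the match were the same in Pira1 and Pira2 and differed at 3 to 4 positions in the other pairs. Capitals mark the match, and each is printed 5′ to 3′ on the strand of the gene, the minus strand.
Pirb, chr7:3720449-3720548: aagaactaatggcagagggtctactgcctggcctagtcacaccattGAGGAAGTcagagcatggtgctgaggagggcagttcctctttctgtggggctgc
Pira1, chr7:3739984-3740083: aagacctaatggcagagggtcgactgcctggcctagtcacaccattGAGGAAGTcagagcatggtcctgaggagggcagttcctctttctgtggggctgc
Pira2, chr7:3845146-3845245: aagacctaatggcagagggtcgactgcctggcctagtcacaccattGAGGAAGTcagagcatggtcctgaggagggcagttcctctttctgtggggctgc
Lilra6, chr7:3915598-3915697: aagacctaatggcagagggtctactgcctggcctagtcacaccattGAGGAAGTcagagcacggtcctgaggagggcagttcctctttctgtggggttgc
The match began 120 bases before the start in Pirb and Pira1, 148 in Pira2 and 150 in Lilra6. A match describes letters only and shows no binding.

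The inflammasome sensors Nlrp1a and Nlrp1b, also neighbours and relatives, carried the same letters. Compared position by position without gaps, their windows differed at 37 of 100 positions. After the match, however, the shared run tctctgatgcc lay further along in Nlrp1b, so the letters there were compared out of step. The 37 therefore does not measure how alike these windows are. Both genes lie on the minus strand and the capitals again mark the match.
Nlrp1a, chr11:71144734-71144833: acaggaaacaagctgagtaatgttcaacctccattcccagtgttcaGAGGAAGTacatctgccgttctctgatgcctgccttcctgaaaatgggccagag
Nlrp1b, chr11:71230776-71230875: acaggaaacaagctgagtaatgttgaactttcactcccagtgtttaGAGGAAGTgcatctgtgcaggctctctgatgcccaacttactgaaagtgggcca
In Fcgr4, on the plus strand, the match lay close to the start. GAGGAAGT was on the other strand there, so the strand of the gene reads ACTTCCTC. In Tlr1, on the minus strand, the match was likewise close to the start. The match in Tlr9 lay after the start, and its window is not shown.
Fcgr4, chr1:171018856-171018925: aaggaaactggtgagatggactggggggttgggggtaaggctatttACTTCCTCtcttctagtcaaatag
Tlr1, chr5:64933559-64933627: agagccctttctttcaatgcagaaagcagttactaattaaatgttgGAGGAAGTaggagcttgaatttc
Of the 8 tested genes with a match 6 fell (75.0%), no larger a share than the 81.4% of all tested receptor genes; Fcgr4 and Nlrp1b did not pass and Nlrp1a was not tested.

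Of the 10 Toll-like receptor genes 9 fell and Tlr6 did not pass, with a median log2 fold change of -4.66. Tlr4, the receptor for bacterial lipopolysaccharide, was at 0.113, 2.06 and 0.274 CPM in AEL and 30.9, 32.0 and 37.9 CPM in NC (log2 fold change -5.36, SE 0.81, adjusted p = 0.00216). Tlr2, which binds lipoproteins, was at 0, 2.82 and 0.915 CPM in AEL and 24.4, 23.9 and 30.1 CPM in NC (-4.38, SE 0.92, adjusted p = 0.00751). Its partners Tlr1 and Tlr6 were at 4.38 to 5.76 CPM and 3.22 to 4.38 CPM in NC. Tlr1 had 3 counts in the AEL group, and the NC level was 50.9 times the AEL level (95% interval 17.0 to 250.02, counting error only). Tlr6 was at 0, 2.06 and 0.274 CPM in AEL, below every NC library, and did not pass (-2.23, SE 1.00, adjusted p = 0.101). It passed without AEL replicate 2 (-4.45, adjusted p = 0.00299) and by limma with a pseudocount of 1 (0.0158) or 5 (0.00995).

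The endosomal receptors for nucleic acids showed the same direction. Tlr7, a sensor of single-stranded RNA, was at 0.225, 0.977 and 0.274 CPM in AEL and 22.0, 24.3 and 28.6 CPM in NC (log2 fold change -5.64, SE 0.53, adjusted p = 0.000449). Tlr8, its close relative, was at 0, 2.06 and 1.10 CPM in AEL and 24.9, 30.003 and 36.2 CPM in NC (-4.82, SE 0.84, adjusted p = 0.00363). Tlr13, which reads bacterial ribosomal RNA, was at 27.7% of its NC mean in AEL replicate 2, with 0.450, 6.62 and 1.10 CPM in AEL and 22.0, 19.8 and 29.8 CPM in NC. Tlr13 passed (-3.13, SE 0.87, adjusted p = 0.0211), but not without any single NC replicate (0.0539 to 0.0734, at -2.95 to -3.26), and the log2 fold change was -4.83 without AEL replicate 2. Tlr9, the receptor for unmethylated CpG DNA, fell 16.4-fold from 2.95 to 6.22 CPM in NC. Tlr3, for double-stranded RNA, and Tlr12 were near the limit of detection in AEL, with 2 and 1 counts in the group. Their NC levels were 27.4 times (7.17 to 233) and 52.5 times (8.95 to 2117) the AEL levels. Both AEL counts of Tlr3 were in replicate 2, so its log2 fold change of -7.06 without that library is set by the fit and is not a bound.

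The 16 genes with C-type lectin names split: 12 fell, Clec16a rose and Clec2d, Clec2f and Clec11a did not pass, with a median log2 fold change of -3.83. Clec12a, an inhibitory receptor for crystals and dead cells, was at 0.225, 8.68 and 2.56 CPM in AEL and 101, 105 and 115 CPM in NC (log2 fold change -4.80, SE 0.85, adjusted p = 0.00381). Clec7a, the beta-glucan receptor known as dectin-1, was at 0, 2.71 and 0.915 CPM in AEL and 40.1, 46.7 and 42.1 CPM in NC (-5.14, SE 0.86, adjusted p = 0.00304). For both, every AEL library was under 10% of the NC mean.

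The 7 neighbouring genes of the Clec4 cluster on chromosome 6 (122921848 to 123289871) all fell. Clec4a1 was at 0.113, 3.80 and 0.640 CPM in AEL and 31.8, 39.5 and 46.3 CPM in NC, and Clec4a3 at 0.113, 1.84 and 0.823 CPM in AEL and 23.5, 23.6 and 21.3 CPM in NC. Clec4a2, the inhibitory receptor DCIR, was at 0.113, 5.53 and 0.915 CPM in AEL and 35.3, 37.8 and 39.7 CPM in NC. The 3 Clec4a genes are related in sequence, so their separate values are uncertain. Clec4n, the fungal mannan receptor dectin-2, had 2 counts in the AEL group, with an NC level 102 times as high (27.8 to 849). Clec4b1 had 1 count, with a ratio of 221 (39.3 to 8794). Clec4d and Clec4e, 2 receptors that pair with each other and bind mycobacterial glycolipid, fell least, by 4.30-fold and 6.30-fold, and Clec4d was at 1.46, 5.32 and 2.65 CPM in AEL and 15.0, 13.0 and 12.8 CPM in NC.

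Clec5a, a Tyrobp-coupled receptor, was at 0, 4.56 and 0.274 CPM in AEL and 16.2, 20.1 and 20.5 CPM in NC (log2 fold change -3.56, SE 1.18, adjusted p = 0.0403). The call ended without AEL replicate 3 (adjusted p = 0.0636) and without any single NC replicate (0.0968 to 0.113, at -3.51 to -3.67), and the value was -6.80 without AEL replicate 2. Clec10a, a lectin for galactose, fell 18.1-fold from 7.25 to 8.62 CPM in NC, with a log2 fold change of -6.90 without AEL replicate 2. Clec2i fell 6.94-fold, from 4.72 to 7.37 CPM in NC to 0, 0.543 and 1.92 CPM in AEL. Its call ended without AEL replicate 2 (adjusted p = 0.0652) and without any single NC replicate (0.0940 to 0.127, at -2.64 to -2.96), and the value was -4.33 without AEL replicate 3.

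Clec16a was the only receptor-named gene that rose. It encodes a protein of endosomes and autophagy rather than a surface lectin, and it lies on chromosome 16 (10545309 to 10744878). It was at 42.1, 45.7 and 43.1 CPM in AEL and 19.3, 24.5 and 25.1 CPM in NC, with little spread in either group and no overlap. The log2 fold change was 0.92 (SE 0.17, adjusted p = 0.00394), and the gene passed in all 6 fits with 1 library left out. Clec2d, a surface ligand of the NK cell receptor NKR-P1B, was at 12.4, 24.5 and 7.87 CPM in AEL and 31.6, 22.2 and 23.3 CPM in NC. AEL replicate 2 lay within the NC range, and the gene did not pass (-0.78, SE 0.42, adjusted p = 0.159), except without AEL replicate 2 (-1.31, adjusted p = 0.00835). Its relative Clec2f was at 0.563, 3.47 and 13.2 CPM in AEL and 0.903, 1.54 and 0.576 CPM in NC, highest in AEL replicate 3 and within reach of NC in AEL replicate 1. It did not pass (2.51, SE 1.05, adjusted p = 0.0830), but did without AEL replicate 1 (3.13, adjusted p = 0.0110), by DESeq2 (0.0378) and by limma on quantile-normalised values (0.0193). Without AEL replicate 3 the log2 fold change was 1.05 and the gene did not pass. Clec11a, a secreted growth factor for hematopoietic and bone cells, was at 1.24, 1.63 and 0.915 CPM in AEL and 0.258, 0.236 and 1.15 CPM in NC (1.16, SE 0.67, adjusted p = 0.186), and passed without NC replicate 3 (2.27, adjusted p = 0.0395) and by limma on quantile-normalised values (0.00128). The plot of Clec16a and the 10 genes that did not pass shows these values library by library.

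**Figure D3:**
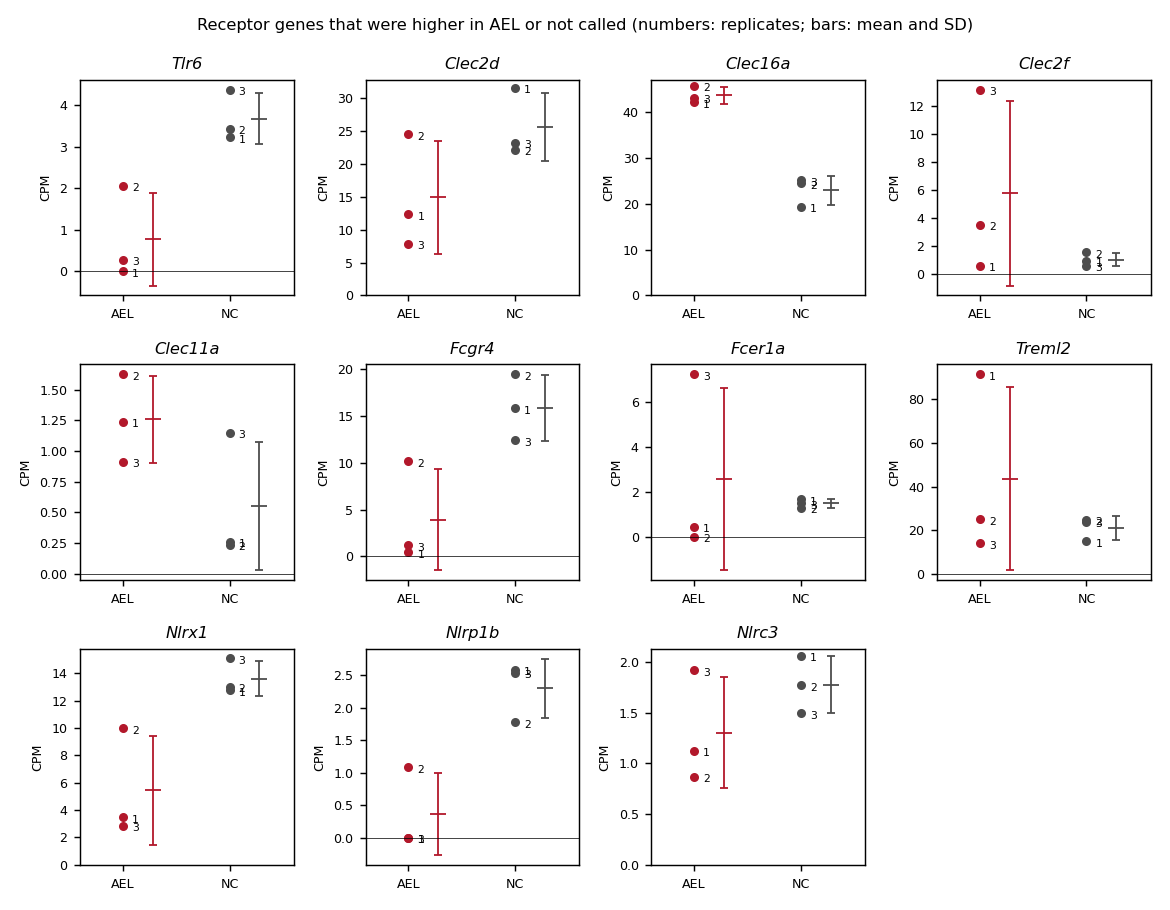
CPM (linear axis, scaled per gene) in each library for 11 tested receptor genes: Clec16a, which rose, and the 10 that did not pass, with numbers for replicates and bars for the mean and SD of 3 libraries. For Fcgr4, Tlr6, Nlrp1b and Nlrx1 all AEL points lie below all NC points, although these genes did not pass. The Clec16a points are tight and separated in the 2 groups, while for Treml2, Clec2f and Fcer1a a single AEL library lies far above the other AEL libraries.

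All 5 Siglecs fell, with a median log2 fold change of -5.31. Of these, 4 reached 1 CPM in no AEL library (Siglec1, Siglecg, Siglech and Siglecf). They could enter the test only through their NC level and had to differ, so the family count adds little. Siglec1, the macrophage receptor sialoadhesin or CD169 (chromosome 2, 131067801 to 131086778), was at 0, 0.543 and 0.274 CPM in AEL and 99.5, 118 and 147 CPM in NC. It had the largest fitted fall of the tested receptor genes, 421-fold (log2 fold change -8.72, SE 0.51, adjusted p = 0.000107). AEL replicate 2 held only 0.445% of the NC mean, which lay under the median monocyte and macrophage marker in that library (0.823%). Siglecg, an inhibitory receptor of B cells, was at 0.225, 0.326 and 0.549 CPM in AEL and 18.1, 17.0 and 19.9 CPM in NC (-5.56, SE 0.39, adjusted p = 0.000188), and here AEL replicate 3 and not 2 was the highest AEL library. Siglech, a gene of plasmacytoid dendritic cells, showed the same order, with 0, 0.217 and 0.549 CPM in AEL and 7.09 to 9.10 CPM in NC. Siglece, an inhibitory receptor of neutrophils and macrophages, was at 0.113, 3.26 and 0.457 CPM in AEL and 18.8, 18.3 and 21.0 CPM in NC (-3.92, SE 0.92, adjusted p = 0.0113), or -5.90 without AEL replicate 2. Siglecf, known from eosinophils, had 1 count in the AEL group, with an NC level 56.0 times as high (9.57 to 2256).

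Of the 5 TREM genes, which lie side by side on chromosome 17 (48232713 to 48352276), 4 fell and Treml2 did not pass. Trem1, which amplifies inflammatory signals in neutrophils and monocytes, was at 1.01, 4.45 and 3.20 CPM in AEL and 25.3, 25.6 and 29.4 CPM in NC (log2 fold change -3.20, SE 0.49, adjusted p = 0.00229). Trem3 was at 0.338, 3.36 and 0.732 CPM in AEL and 22.7, 27.3 and 24.8 CPM in NC (-4.07, SE 0.74, adjusted p = 0.00415). Treml4 was at 0, 0.868 and 0.549 CPM in AEL and 24.1, 33.8 and 35.5 CPM in NC (-5.98, SE 0.71, adjusted p = 0.000958). Trem2, a lipid receptor of macrophages, was at 0.113, 0.217 and 0.183 CPM in AEL and 19.0, 12.6 and 17.8 CPM in NC, all AEL libraries alike (-6.47, SE 0.41, adjusted p = 0.000142). Treml2 (48299390 to 48312534), between Treml4 and Trem2, was at 91.3, 25.1 and 14.1 CPM in AEL and 15.0, 24.8 and 23.9 CPM in NC. Its groups overlapped on both sides. The log2 fold change of 1.03 (SE 0.67, adjusted p = 0.230) came to -0.04 without AEL replicate 1, the 1 library where Treml2 stood above the rest.

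Of the 8 NOD-like receptor genes tested 5 fell, and Nlrx1, Nlrp1b and Nlrc3 did not pass. Nod1, a cytosolic sensor of bacterial peptidoglycan, was at 0, 2.17 and 0.366 CPM in AEL and 24.6, 29.8 and 36.5 CPM in NC (log2 fold change -5.15, SE 0.94, adjusted p = 0.00429). Its relative Nod2 was at 0, 0.434 and 0 CPM in AEL and 2.06, 2.83 and 2.99 CPM in NC and fell 17.3-fold. All 4 of its AEL counts were in replicate 2, so the log2 fold change of -7.54 without that library is set by the fit and is not a bound. Nlrp3, the sensor of the best-known inflammasome, was at 0.113, 1.95 and 0.366 CPM in AEL and 9.67 to 12.9 CPM in NC and fell 13.2-fold. Nlrp12 fell 33.5-fold. Nlrc4, which responds to flagellin through Naip proteins, had 3 counts in the AEL group against 124 in NC, a ratio of 48.2 (16.1 to 237).

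Nlrx1, a mitochondrial member, was at 3.49, 9.98 and 2.84 CPM in AEL and 12.8, 13.0 and 15.1 CPM in NC. All AEL libraries were below all NC libraries, but the gene did not pass (log2 fold change -1.33, SE 0.50, adjusted p = 0.0622), except without AEL replicate 2 (-2.06, adjusted p = 0.00109), by DESeq2 (adjusted p = 0.0292) and by limma with a pseudocount of 1 (0.0276) or 5 (0.0202). Nlrc3 was at 1.13, 0.868 and 1.92 CPM in AEL and 2.06, 1.77 and 1.5 CPM in NC, with overlap (-0.43, SE 0.43, adjusted p = 0.429). Nlrp1b was seen in AEL replicate 2 alone, at 1.09 CPM, against 1.77 to 2.58 CPM in NC (-2.66, SE 1.11, adjusted p = 0.0823). Without AEL replicate 2, where the other AEL libraries had no count, Nlrp1b passed (adjusted p = 0.00171), as it did by limma with a pseudocount of 1 (0.00991) or 5 (0.00860). Nlrp1a was not tested, with 1 count in AEL and 40 in NC.

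**Figure D4:**
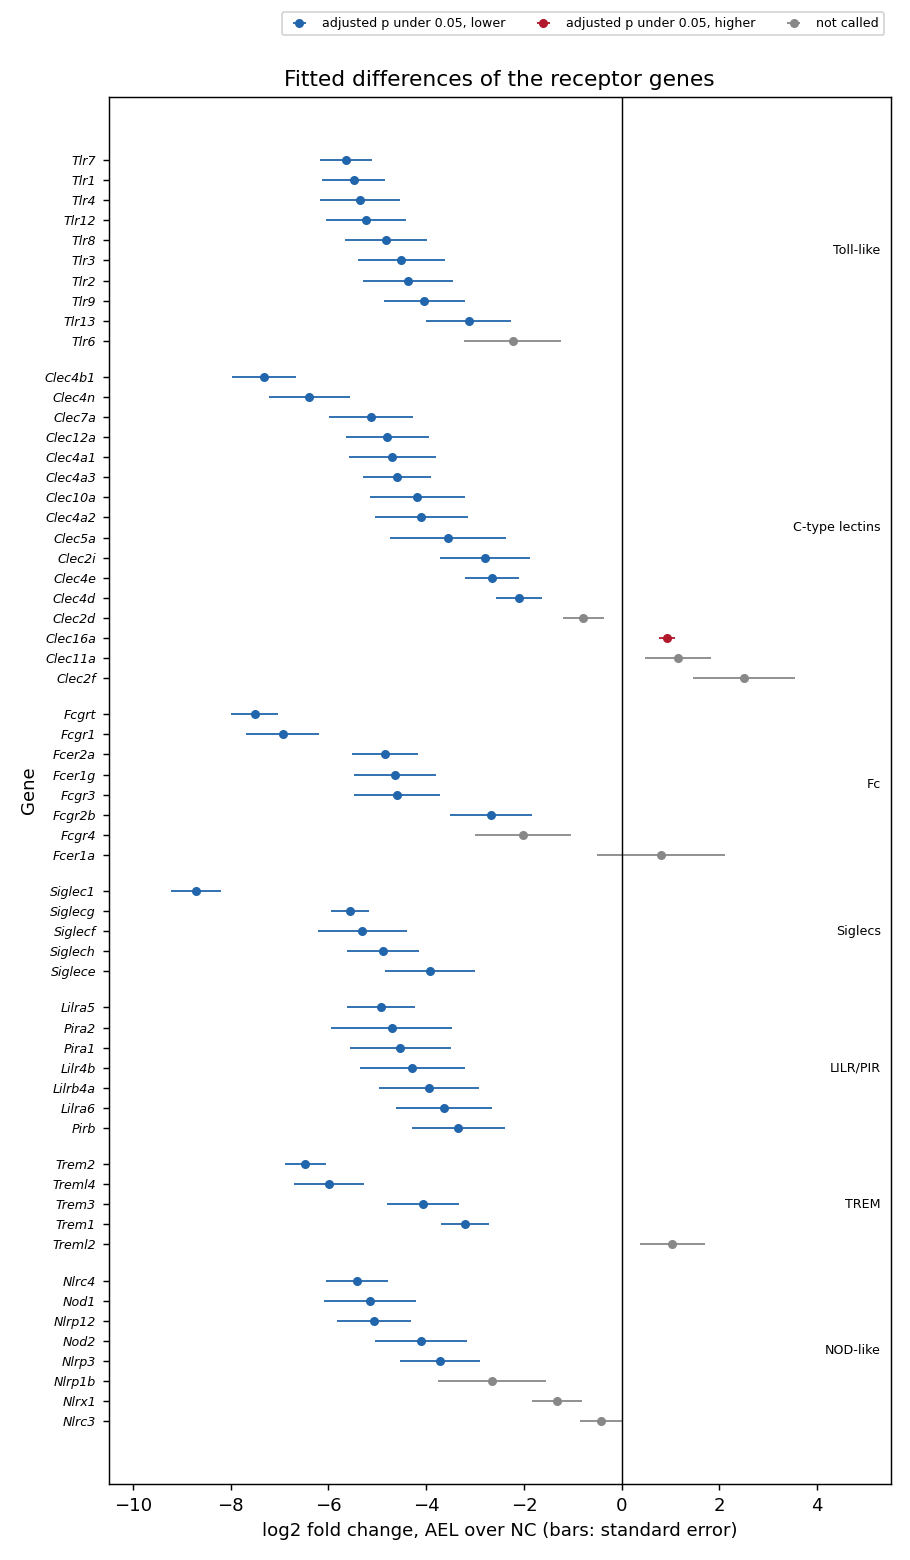
Log2 fold change (AEL over NC) of the 59 tested receptor genes by family, with bars of 1 SE on each side. Nearly all points lie left of 0, from -8.72 for Siglec1, and the points to the right are Clec16a, Treml2, Clec2f, Clec11a and Fcer1a.

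Neighbouring receptor genes mostly fell, with exceptions inside the runs. This is to be read beside the 81.4% of all tested receptor genes that fell, and a link to position was not tested. In these runs Clec4b1, Clec4n, Nlrp12, Lilra5, Siglecf, Siglecg, Treml4 and Trem2 reached 1 CPM in no AEL library and had to differ. In 6 runs of at least 3 receptor genes with gaps of no more than 500000 bases, all members fell in 3: the Clec4 run, the PIR run with Nlrp12 and Lilra5 on chromosome 7 (3218643 to 4243690), and Siglecf, Siglecg and Siglece (chromosome 7, 43351341 to 43672044). In the other 3 the members that did not pass were Fcgr4, Treml2, and Clec2d with Clec2f, which lie beside Clec12a and Clec7a (chromosome 6, 128887587 to 129472785). Within that last run log2 fold changes went from -5.14 for Clec7a to 2.51 for Clec2f.

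The adaptors that carry the receptors' signals were not all lower. Tyrobp, also called DAP12, the chain used by TREM receptors and Clec5a, was at 0, 12.9 and 4.12 CPM in AEL and 136, 154 and 166 CPM in NC (log2 fold change -4.74, SE 1.01, adjusted p = 0.00776). Syk, the kinase that Tyrobp and Fcer1g recruit, was at 0.90, 13.8 and 2.38 CPM in AEL and 124, 134 and 160 CPM in NC (-4.62, SE 0.86, adjusted p = 0.00453). Both had the order of AEL libraries seen in the median receptor gene. Spi1, which encodes PU.1, was at 0.788, 15.2 and 2.84 CPM in AEL and 72.6, 86.6 and 99.7 CPM in NC, with the same order of AEL libraries as Tyrobp and Syk (log2 fold change -3.79, SE 0.88, adjusted p = 0.0111). Myd88, the adaptor of most Toll-like receptors, was at 31.4, 47.6 and 37.7 CPM in AEL and 40.5, 43.4 and 42.0 CPM in NC, with overlapping groups (-0.11, SE 0.18, adjusted p = 0.642), and its sign turned with library totals alone (0.08) and without AEL replicate 1 (0.10).

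The counts in the lists that follow are to be read beside the 29.0% of all genes tested that fell and the 23.9% that rose. Of 42 measured genes of the Toll-like receptor pathway 19 fell and 5 rose, with a median log2 fold change of -0.47. Cd14, the co-receptor of Tlr4, was at 0.113, 0.434 and 0.549 CPM in AEL and 17.4, 18.1 and 18.8 CPM in NC (-5.55, SE 0.47, adjusted p = 0.000342). The kinase Irak2 fell 4.53-fold and the NF-kappa-B inhibitor Nfkbia 3.99-fold. Nfkb1, a subunit of NF-kappa-B, rose from 58.9, 71.2 and 67.5 CPM in NC to 150, 169 and 177 CPM in AEL (log2 fold change 1.33, adjusted p = 0.000453). Traf6, the ubiquitin ligase below Myd88, and Sigirr, a negative regulator, rose by log2 fold changes of 1.21 and 1.81. With library totals alone 9 genes of this list rose.

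Of 24 tested activating adaptors and kinases 13 fell and 2 rose, with a median of -1.77. Those of smallest p among the falls were the adaptors Blnk, 146-fold, and Lcp2, 21.5-fold, and the kinase Src, 12.4-fold. Blnk is also among the B cell markers summed above. Lat, an adaptor of T cells, mast cells and platelets, rose from 2.45, 2.24 and 2.76 CPM in NC to 21.0, 14.1 and 28.1 CPM in AEL (log2 fold change 3.08, adjusted p = 0.000760). Btk, the kinase that acts beside Syk, rose from 64.5, 70.4 and 63.7 CPM in NC to 146, 126 and 95.4 CPM in AEL (0.89, adjusted p = 0.00555). With library totals alone 4 genes of this list rose. Of 10 genes grouped as inhibitory phosphatases and their partners 2 fell and 1 rose, with a median of -0.04. Ptpn6, the phosphatase SHP-1 used by Pirb, was at 39.3, 52.1 and 47.2 CPM in AEL and 144, 172 and 162 CPM in NC (-1.79, adjusted p = 0.000311), and Dok3 fell 8.92-fold. Cblb rose (0.97, adjusted p = 0.0191), but not without NC replicate 1 (0.0750) or 2 (0.0752).

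Of 22 inflammasome and NOD partner genes 13 fell and 2 rose, with a median of -1.20. The cytokine Il18 fell 144-fold, from 23.3, 22.4 and 19.9 CPM in NC to 0, 0.326 and 0.0915 CPM in AEL, and Ninj1, which ruptures the membrane of dying cells, and Ciita, the master regulator of MHC class II, fell 2.93-fold and 23.6-fold. Nek7, a partner of Nlrp3, and Naip2, a partner of Nlrc4, rose by log2 fold changes of 0.50 and 0.73, calls that ended without any single NC replicate (adjusted p of 0.0810 to 0.0963 and 0.107 to 0.122) and with the replicate block (0.0655 and 0.0720); the call of Naip2 also ended without AEL replicate 1 (0.0545) or 2 (0.0501). Of 16 cytosolic nucleic acid sensors and their adaptors 6 fell and 5 rose, with a median of -0.68, shares near the 29.0% and 23.9% of all genes tested. Oas3, Oas2 and Zbp1, known as interferon-induced, fell 3.55-fold, 8.62-fold and 17.5-fold. Mavs, the mitochondrial adaptor of RNA sensing, and the helicases Dhx9 and Ddx41 rose by log2 fold changes of 0.93, 0.59 and 0.47, of which that of Ddx41 did not pass without any single NC replicate (0.0601 to 0.0699) or with the replicate block (0.0584).

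Receptors of like kind outside the named families fell as well. Of 25 tested lectins and scavenger receptors 22 fell and 0 rose, with a median of -5.20 (-4.44 with the 4 tested genes at 0 in every AEL library set to their bound, 3 counts in the shallowest AEL library). With the filter kept at 3 libraries, only 12 of them could be tested without any single NC replicate, and 4 fell. Genes of this list and the next that were seen in NC alone had to differ, so they add nothing to the counts. Cd163, the macrophage hemoglobin scavenger, was at 5.51, 6.62 and 4.39 CPM in AEL and 209, 226 and 264 CPM in NC, and Cd5l, a secreted macrophage protein, fell 901-fold. Stab2, a scavenger receptor of sinusoidal cells, fell from 31.8, 36.7 and 37.9 CPM in NC to 0.113, 0.109 and 0.0915 CPM in AEL, 1 count in each library. Cd209a, Cd209f, Cd209g, Asgr2 and Marco had no count in any AEL library. Of 23 other Fc and paired receptors 19 fell and 0 rose, with a median of -4.47, among them the B cell genes Fcrla (105-fold), Fcmr and Fcrl1. Fcmr was at 0.225, 0 and 0 CPM in AEL and 8.98 to 9.28 CPM in NC, and Fcrl1 at 0, 0.109 and 0 CPM in AEL and 8.39 to 11.99 CPM in NC. Both lists hold many genes of macrophages and B cells, whose marker sums were lower in the same libraries. Cd163 is itself among the monocyte and macrophage markers, so the lists and the marker sums are not fully separate observations. The part of these cells in the falls was not tested.

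Scaling changed little for the receptor genes. Of all genes that passed, 45.2% were higher in AEL with TMM scaling, 55.2% with library totals alone and 55.5% with limma on quantile-normalised values, which moved the median of all genes from -0.05 to 0.14 and 0.11. The receptor genes that fell and rose numbered 48 and 1 with library totals alone, and 46 and 3 with quantile normalisation. With 1 library left out, 39 to 53 of 59 to 60 tested receptor genes fell, and 39 fell in all 6 such fits (20 to 52 fell with the filter kept at 3 libraries, where leaving out an NC library removes the genes seen in NC alone), Fcer1g, Fcgrt, Siglec1, Tlr4, Tlr7, Clec7a and Clec12a among them. Library totals ran from 8171676 to 9945330 counts. The biological coefficient of variation was 44.2% in AEL and 9.15% in NC, and no library repeated another (chi-square per degree of freedom 4.94 to 9.09 within NC and 49.4 to 61.9 within AEL).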

How the data were processed

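The authors deposited 1 table of whole-number counts per gene for 6 libraries; its name says CPM, but the values are unscaled counts with different totals. Every gene exceeds 1 CPM in at least 2 libraries, so genes seen in 1 library are not in it. Build mm10 and edgeR 3.32.1 are named in the submitters' processing notes; no source used here gives the aligner, counting tool or strandedness, so overlapping, antisense and near-identical genes are uncertain. Counts were fitted with edgeR 4.0.16 (R 4.3.3; TMM, glmQLFit and glmQLFTest, group only, 1 CPM in at least 3 libraries, adjusted p of 0.05). Standard errors were derived from the fold change and the F statistic of the fit. Alternatives used limma 3.58.1, DESeq2 1.42.0, other scalings and filters, a replicate block and left-out libraries. The fit was also run on simulated data in which far fewer genes changed than passed here, so that run does not check the scaling of these data. The receptor genes and all gene lists were chosen with earlier results of these data known. Receptor genes whose higher group averaged at least 20 CPM have their values given per library, as do those that rose or did not pass; from each other list up to 3 genes of smallest p per direction are named, and always Tyrobp, Syk, Myd88, Cd14 and Spi1. Ratios of genes with 1 to 3 counts in AEL have exact 95% intervals for counting error only. All 60 genes matched RefSeq (GRCm38.p6, the assembly of mm10) by symbol, and 59 had an exon length in GENCODE. Protein motifs were not analysed here. Figures and summaries used Python 3.11.15, pandas 2.3.3 and matplotlib 3.10.9.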

Additional observations from a re-analysis of the deposited data

How the results depend on the processing

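Left-out libraries moved the counts most. With the filter of 1 CPM in 3 libraries, leaving out an NC library let only 40 to 41 receptor genes be tested, since a gene seen in NC alone cannot then pass the filter. With that filter the receptor genes that fell numbered 20 to 52 and those that rose 1 to 2, and all genes 1780 to 3834 lower and 1672 to 3253 higher. By family the falls numbered 3 to 7 (Fc), 1 to 7 (LILR and PIR), 2 to 7 (NOD-like), 7 to 12 with 1 to 2 rises (C-type lectins), 2 to 4 (TREM), 0 to 5 (Siglecs) and 4 to 10 (Toll-like). Falls and rises numbered 11 to 20 and 3 to 7 in the Toll-like receptor pathway, 8 to 15 and 2 to 4 for activating adaptors, 2 to 3 and 0 to 2 for inhibitory phosphatases, 5 to 11 and 0 to 4 for inflammasome partners, 3 to 6 and 1 to 5 for nucleic acid sensors, 4 to 24 and 0 for other lectins, and 10 to 21 and 0 to 1 for other Fc and paired receptors. With the filter at 2 libraries, chosen after seeing the data, all genes higher numbered 1877 and 1944 without NC replicates 1 and 2, the LILR and PIR falls 2 to 3 without an NC library, the NOD-like falls 8 without AEL replicate 2, and the inflammasome partners 8 lower and 0 higher without an NC library; the other counts that moved by over 1.5 times lay within the ranges above. With the 3-library filter the calls of Clec10a (without NC replicate 2, adjusted p = 0.0508), Siglece (without NC replicate 3, 0.0504), Lilr4b (without NC replicate 1 or 2, 0.0575 and 0.0542) and Dhx9 (without NC replicate 1 or 2, 0.0579 and 0.0551) also ended. The sign turned for Fcer1a without AEL replicate 3 (-2.63, or -2.65 with the 2-library filter; up to 1.49 without the others), for Treml2 without AEL replicate 1 (-0.021, -0.039; up to 1.49) and for Myd88 without AEL replicate 1 (0.12, 0.10; down to -0.20); the cause was not tested.

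A filter of 10 CPM tested 36 receptor genes, of which 31 fell, with 1 NOD-like receptor, 3 Siglecs and 5 Toll-like receptors among them, and 12 genes of the Toll-like receptor pathway, 3 sensors, 11 other lectins and 11 other Fc and paired receptors; fewer genes are tested by construction. DESeq2 called 2 receptor genes higher (Clec16a and Clec2f), both of them C-type lectins, and left 26 adjusted p-values of all genes NA. Limma on quantile-normalised values called 3, also all C-type lectins, ended the calls of Tlr12 (0.105), Siglecf (0.0928) and Tlr3 (0.0893) and turned Nlrc3 to 0.74. With library totals alone 9, 4 and 2 genes rose in the Toll-like receptor pathway, the activating adaptors and the inhibitory phosphatases, and Myd88 was at 0.081. A pseudocount of 1 in limma turned Fcer1a to -0.12. Limma with a pseudocount of 1 or 5 called 52 receptor genes lower, adding Fcgr4, Tlr6, Nlrp1b and Nlrx1.

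Libraries with the same replicate number showed no common deviation (correlations 0.0824, -0.0167 and -0.0314, within the -0.0755 to 0.0904 of the other pairs). With 3 libraries in each group and a wide spread in AEL, this check cannot exclude a pairing. With the replicate block 49 receptor genes fell and 1 rose, Fcer1a was at -0.77, 0 inflammasome partners and 2 nucleic acid sensors rose, and over all genes 3238 fell and 2241 rose. Depth limits the 19 receptor genes that reached 1 CPM in no AEL library, where a few counts set the fold.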
